A study of Mus musculus with 23 samples.

Results

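The genes described here were 35 enzymes of amino acid breakdown and of the methionine cycle, taken by gene name from the 48897 lines of the expression table. All 35 were found, and all 35 passed the filter on low counts in each comparison. The tissues were measured by sequencing of polyadenylated RNA in male BALB/c mice that entered the experiment at 4 to 6 weeks of age. Control liver came from 5 sham-operated mice (C1, C4, C5, C6 and C7) whose cecal wall received medium without cells. Pre-metastatic liver and primary colon tumor came from the same 9 mice (M1, M2, M4, M5, M6, M7, M8, M10 and M12), whose cecal wall received CT26 cells, a colon carcinoma line of the same mouse strain. Tissue was collected 3 weeks after the injection. The tumor therefore came from 1 transplanted cell line, and the liver was taken before metastases were seen in it.

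Amino acids that are not built into protein are broken down mainly in the liver. Transaminases, deaminases and dehydratases remove the nitrogen, which enters the urea cycle, and the carbon skeletons go to glucose, ketone bodies or oxidation. In the methionine cycle, methionine is activated to S-adenosylmethionine, the methyl donor of the cell, then turned into S-adenosylhomocysteine and homocysteine. Homocysteine is either methylated back to methionine or passed through transsulfuration to cysteine and taurine. Several of these genes, Tat and Sds among them, are textbook targets of glucocorticoids and glucagon in hepatocytes.

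Stretches of 160 bases before the transcription start are shown for 4 genes, 3 that were lower in pre-metastatic liver (Tat, Hal and Got1) and 1 that was not called (Fah). They are from RefSeq on build GRCm38.p6 and are written 5′ to 3′ on the strand of the gene. Capitals mark the motifs that were searched for.
Tat, chr8:109990276-109990435, plus strand: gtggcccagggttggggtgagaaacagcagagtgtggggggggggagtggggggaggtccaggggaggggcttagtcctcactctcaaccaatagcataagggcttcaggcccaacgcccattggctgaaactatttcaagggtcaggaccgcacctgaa
Hal, chr10:93488608-93488767, plus strand: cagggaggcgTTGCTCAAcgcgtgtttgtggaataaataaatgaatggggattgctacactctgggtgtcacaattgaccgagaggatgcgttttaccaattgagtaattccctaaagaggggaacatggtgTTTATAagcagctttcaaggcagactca
Got1, chr19:43524606-43524765, minus strand: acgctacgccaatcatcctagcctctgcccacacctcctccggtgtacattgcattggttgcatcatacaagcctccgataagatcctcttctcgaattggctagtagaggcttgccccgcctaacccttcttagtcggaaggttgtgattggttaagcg
Fah, chr7:84605943-84606102, minus strand: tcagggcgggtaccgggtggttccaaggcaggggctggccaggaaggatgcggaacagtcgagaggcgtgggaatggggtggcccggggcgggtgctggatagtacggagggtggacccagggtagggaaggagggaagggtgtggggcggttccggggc

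Motifs were searched on both strands in the 250 bases before the start, and 26 of the 35 enzymes had an entry. The C/EBP core TTGCNNAA was found before 3 of them (Aass, Hal and Hgd), against 9.56% of all 32851 promoters. The TATA box TATAAA was found before 3 (Ftcd, Hal and Hgd), against 12.4%. The CREB motif TGACG was found before 3 (Aass, Csad and Ftcd), against 17.8%, and the glucocorticoid receptor motif TGTTCT before 2 (Agxt and Bckdhb), against 16.1%. In the Hal stretch the C/EBP core began 150 bases and the TATA box, on the opposite strand, 28 bases before the start. A match is a description of these letters and not a site of binding.

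Libraries held 44587556 to 79773163 counts. The summed level of 7 hepatocyte markers (Alb, Ttr, Apoa1, Apob, Serpina1c, Fgb and Hnf4a) was 42700 to 54129 RPKM (reads per kilobase of gene scaled to library depth, a level that can be compared between genes) in control liver and 35170 to 77194 RPKM in pre-metastatic liver, so the liver label held in all 14 livers. In tumors the same sum was 7.32 to 299 RPKM. Tumors M10 and M12 stood apart, with Alb at 86.4 and 173 RPKM against 2.97 to 15.0 RPKM in the other 7. Among the livers, M6 stood apart for several of the enzymes. An index of 6 clock genes divided the livers into 9 of early phase and 5 of late phase (C7, M1, M2, M10 and M12), and phase is given beside the results below.

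The 35 enzymes together took 3.80% ± 0.587 (SD, n = 5) of all counts in control liver, 1.45% ± 0.175 (SD, n = 9) in pre-metastatic liver and 0.0603% ± 0.00557 (SD, n = 9) in tumor. The lowest control liver (C7, 3.25%) lay above the highest pre-metastatic liver (M6, 1.69%), and the groups did not overlap. In bulk tissue, fewer cells of a type and less RNA per cell cannot be told apart.

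**Figure D1:**
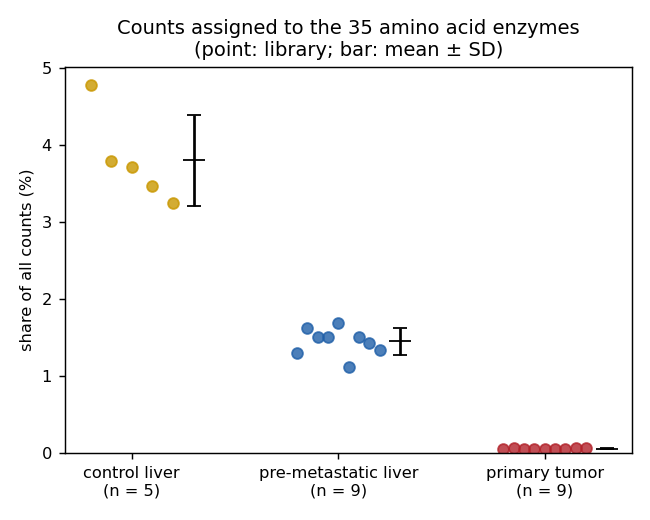
Share of all counts (%) assigned to the 35 enzymes in each library (points), with the mean and SD of each group (bars) for 5 control livers, 9 pre-metastatic livers and 9 primary tumors. The 5 control livers sit between 3.25% and 4.78%, all above the pre-metastatic livers at 1.12% to 1.69%.

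The first comparison asked which of these enzymes differ between the liver of tumor-bearing mice, before metastasis, and the liver of sham-operated mice. Of the 35 enzymes, 29 were lower in pre-metastatic liver, none (0) was higher and 6 were not called, by edgeR's quasi-likelihood test with Benjamini-Hochberg adjustment over all 16989 genes tested (two-sided, adjusted p under 0.05). Of all genes tested, 13.3% were called lower and 17.7% higher. The enzymes were chosen with earlier results of these data known, so these shares are a description and not a test of the list. The median log2 fold change was -0.99 over the 35 enzymes and 0.01 over all genes. In 17 enzymes every pre-metastatic liver lay below every control liver, which held for 6.09% of all genes tested, and the opposite for 4.85%. In 17, not all of them the same, the call was lower with a log2 fold change of -1 or less, which held for 2.58% of all genes tested. With the tumors added to the fit, 18 enzymes were called lower, and the calls of Tat, Hpd, Hgd, Agxt, Amdhd1, Ftcd, Mat1a, Gnmt, Bhmt, Dmgdh and Cdo1 were lost at log2 fold changes close to those given below. In early-phase livers alone the median over the enzymes was -1.06, with 27 called lower. With phase as a term it was -1.08, with 29. Late phase held 1 control liver and 4 pre-metastatic livers, so phase and group could not be well separated.

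**Figure D2:**
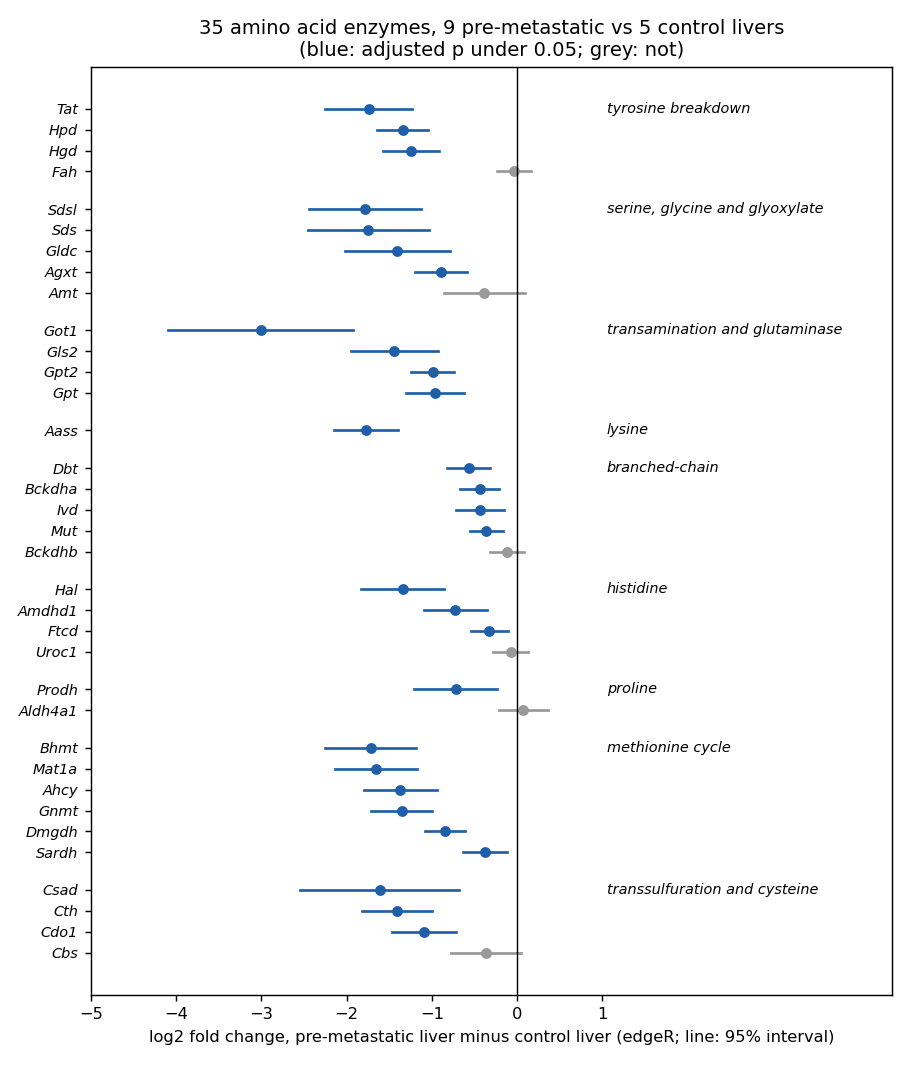
Log2 fold change of each of the 35 enzymes, 9 pre-metastatic livers minus 5 control livers, with its 95% interval (line), grouped by pathway and coloured blue where the edgeR adjusted p was under 0.05. The 29 blue points lie between -3.01 (Got1) and -0.33 (Ftcd), and the 6 grey points between -0.38 (Amt) and 0.07 (Aldh4a1).

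In tyrosine breakdown the first 3 enzymes were lower and the last was not called. Tat, tyrosine aminotransferase, which takes the amino group off tyrosine, was at 1822, 787, 989, 833 and 554 RPKM in control livers C1, C4, C5, C6 and C7. In pre-metastatic livers Tat ranged from 175 (M6) to 520 RPKM (M5) with a median of 244. Every pre-metastatic liver was below the lowest control liver, C7, and the log2 fold change was -1.74 ± 0.26 (SE; edgeR adjusted p = 0.00024), a level 3.35-fold lower. Control liver C1 was the highest, and without it the log2 fold change was -1.36. Hpd, the dioxygenase of the next step, was at 2646, 2368, 2706, 2214 and 1709 RPKM in the control livers and at 565 (M7), 883 (median) and 1266 RPKM (M2) in the pre-metastatic livers. The groups were well apart, with a log2 fold change of -1.34 ± 0.15 (SE; edgeR adjusted p = 4.2e-05). Hgd, which opens the ring of homogentisate, was at 484, 515, 632, 458 and 311 RPKM in control livers and at 128 (M1), 196 (median) and 258 RPKM (M2) in pre-metastatic livers. Hgd also showed no overlap, with a log2 fold change of -1.25 ± 0.17 (SE; edgeR adjusted p = 0.00012). Fah, the hydrolase that ends the pathway, was at 250 to 337 RPKM in control livers and at 221 to 318 RPKM in pre-metastatic livers. The Fah groups overlapped along nearly their whole range, and the 95% interval of the log2 fold change, -0.23 to 0.16, lay wholly above those of the other 3 genes. The ratio of Tat to Fah in RPKM had a median of 2.97 in control livers and 0.988 in pre-metastatic livers. Its ranges were 2.22 to 5.41 and 0.703 to 1.78. The pair was chosen after the values were seen, and the ratio is given as a description.

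Of the 5 enzymes of serine, glycine and glyoxylate, 4 were lower. Sds, serine dehydratase, which turns serine into pyruvate, was at 286, 241, 335, 218 and 85.4 RPKM in the control livers and at 26.7 (M7), 60.6 (median) and 151 RPKM (M6) in the pre-metastatic livers. M6 was the only pre-metastatic liver above the lowest control liver, C7. The log2 fold change of Sds was -1.75 ± 0.36 (SE; edgeR adjusted p = 0.0022). Its neighbor on chromosome 5, Sdsl, a related dehydratase 3723 bases away, was at 33.9, 25.8, 43.6, 20.1 and 17.0 RPKM in control livers and at 4.71 (M1), 6.12 (median) and 18.5 RPKM (M6) in pre-metastatic livers. Again only M6 reached the control range, and the log2 fold change was -1.78 ± 0.33 (SE; edgeR adjusted p = 0.0011). Gldc, the decarboxylase of the glycine cleavage system, was at 86.6, 84.4, 84.5, 67.2 and 55.1 RPKM in control livers and at 10.4 (M10), 27.9 (median) and 48.6 RPKM (M8) in pre-metastatic livers. The Gldc groups did not overlap, and the log2 fold change was -1.40 ± 0.31 (SE; edgeR adjusted p = 0.0035). Agxt, which turns glyoxylate into glycine in peroxisomes, was at 204, 314, 185, 259 and 236 RPKM in control livers and at 76.7 (M12), 125 (median) and 168 RPKM (M4) in pre-metastatic livers, without overlap. Its log2 fold change was -0.89 ± 0.15 (SE; edgeR adjusted p = 0.00062). Amt, the aminomethyltransferase that works with Gldc in the same complex, was at 25.1 to 31.9 RPKM in control livers and at 10.4 to 35.3 RPKM in pre-metastatic livers. Amt was not called, at -0.38 with a 95% interval of -0.86 to 0.09, and its pre-metastatic livers lay both above and below the control range. Of the exonic bases of Sds, 21.3% are shared with Plbd2 on the opposite strand, and Plbd2 itself was at 19.6 to 37.7 RPKM in the livers. Whether counting used the strand is not given in the sources used here.

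All 4 enzymes of transamination and glutamine breakdown were lower. The largest fall of the 35 was that of Got1 (chr19:43499752-43524605), the cytosolic aspartate aminotransferase of the malate-aspartate shuttle. Got1 was at 450 (C1), 461 (C4), 515 (C5), 303 (C6) and 149 RPKM (C7) in control livers and at 15.1 (M7), 31.0 (median) and 176 RPKM (M6) in pre-metastatic livers. The other 8 pre-metastatic livers lay at or below 33.2 RPKM, and M6 alone overlapped the controls. The log2 fold change of Got1 was -3.01 ± 0.55 (SE; edgeR adjusted p = 0.001), and without M6 it was -3.81. Got2, the mitochondrial form, was named after its values were seen; it was at 204 to 267 RPKM in control livers and 156 to 212 RPKM in pre-metastatic livers, with a log2 fold change of -0.29. The ratio of Got1 to Got2 had a median of 1.80 in control livers and 0.157 in pre-metastatic livers. Its ranges overlapped, at 0.559 to 2.52 and 0.085 to 1.13. Gpt, the cytosolic alanine aminotransferase, was at 260, 193, 284, 201 and 228 RPKM in control livers and at 63.8 (M7), 111 (median) and 174 RPKM (M2) in pre-metastatic livers. Its mitochondrial counterpart Gpt2 was at 94.2, 87.3, 91.9, 80.3 and 100 RPKM in control livers and at 31.1 (M4), 43.4 (median) and 57.6 RPKM (M2) in pre-metastatic livers. Neither alanine aminotransferase overlapped between the groups, and the log2 fold changes were -0.96 ± 0.17 for Gpt and -0.99 ± 0.13 for Gpt2 (SE; edgeR adjusted p = 0.00083 and 0.0001). Gls2, the glutaminase of adult liver, was at 140, 107, 164, 104 and 67.4 RPKM in control livers and at 16.0 (M7), 43.3 (median) and 60.8 RPKM (M2) in pre-metastatic livers. Gls2 did not overlap either, with a log2 fold change of -1.44 ± 0.26 (SE; edgeR adjusted p = 0.00089).

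Aass, the bifunctional enzyme that starts lysine breakdown in mitochondria, was at 203, 153, 195, 153 and 140 RPKM in control livers. In pre-metastatic livers Aass was at 27.2 (M7), 49.4 (median) and 71.8 RPKM (M2). The lowest control liver was nearly at 2 times the highest pre-metastatic liver, and the log2 fold change was -1.77 ± 0.19 (SE; edgeR adjusted p = 3.3e-05).

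Of the branched-chain group 4 of 5 genes were called lower, with a median log2 fold change of -0.44, and 0 reached -1. Bckdha, the E1 alpha subunit of the branched-chain keto acid dehydrogenase, was at 150, 144, 142, 140 and 157 RPKM in control livers and at 75.6 (M6), 95.8 (median) and 138 RPKM (M10) in pre-metastatic livers. The control livers were close together and just above the highest pre-metastatic liver, with a log2 fold change of -0.44 ± 0.12 (SE; edgeR adjusted p = 0.011). Bckdha shares 61.7% of its exonic bases with B3gnt8 on the opposite strand, which was at 0.118 to 0.695 RPKM in the livers. Its partner subunit Bckdhb was not called, at 60.6 to 74.1 RPKM in control livers and 46.7 to 74.0 RPKM in pre-metastatic livers (95% interval of the log2 fold change -0.32 to 0.08). Dbt, the E2 core of the complex, was at -0.57, Ivd, the isovaleryl-CoA dehydrogenase of leucine breakdown, at -0.44 and Mut, methylmalonyl-CoA mutase, at -0.36 on the log2 scale. All 3 were called lower, and the groups of all 3 overlapped.

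Of the 4 enzymes that take histidine to glutamate in sequence, 3 were called lower and urocanase, which acts after the first, was not. Hal, histidine ammonia-lyase, was at 204, 148, 237, 144 and 100 RPKM in control livers and at 39.7 (M7), 57.1 (median) and 94.7 RPKM (M6) in pre-metastatic livers. The groups did not overlap, although C7 and M6 came close, and the log2 fold change was -1.34 ± 0.25 (SE; edgeR adjusted p = 0.0011). Uroc1, urocanase, was at 99.3 to 115 RPKM in control livers and 69.7 to 115 RPKM in pre-metastatic livers, with a log2 fold change of -0.08 (95% interval -0.28 to 0.13). Amdhd1, which lies 6576 bases from Hal on chromosome 10 in the opposite orientation, had a log2 fold change of -0.72, at 77.0 to 125 RPKM in control livers against 34.2 to 86.1 RPKM. Ftcd, the formiminotransferase that hands the last carbon unit to folate, was at -0.33. The ratio of Hal to Uroc1 had a median of 1.44 in control livers and 0.589 in pre-metastatic livers. Its ranges overlapped, at 1.01 to 2.07 and 0.419 to 1.04. The pair was chosen after the values were seen, and the ratio restates the lower level of Hal.

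In proline breakdown, Prodh, proline dehydrogenase, was called lower at a log2 fold change of -0.72, with levels of 54.0 to 123 RPKM in control livers and 26.0 to 82.4 RPKM in pre-metastatic livers. Aldh4a1, the dehydrogenase that follows Prodh in mitochondria, was at 77.7 to 97.6 RPKM in control livers and at 56.6 to 114 RPKM in pre-metastatic livers. Its log2 fold change was 0.07 with a 95% interval of -0.22 to 0.36, and the pre-metastatic livers lay on both sides of the controls. Of the exonic bases of Aldh4a1, 32.5% are shared with the gene model Gm21969 on the same strand.

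All 6 enzymes of the methionine cycle and its methyl transfers were lower, with a median log2 fold change of -1.36. Of the 9 pathway groups they had the highest summed level, 7125 to 11797 RPKM in control livers and 2201 to 3687 RPKM in pre-metastatic livers. Mat1a, which makes S-adenosylmethionine in adult liver, was at 3010, 2443, 2406, 2232 and 2488 RPKM in control livers and at 476 (M5), 762 (median) and 1220 RPKM (M6) in pre-metastatic livers. The control livers were tightly grouped, and all pre-metastatic livers were below them by a wide gap, with a log2 fold change of -1.65 ± 0.24 (SE; edgeR adjusted p = 0.00022). Gnmt, which uses up S-adenosylmethionine by methylating glycine, was at 2253, 1713, 2136, 1651 and 1158 RPKM in control livers and at 435 (M7), 667 (median) and 872 RPKM (M2) in pre-metastatic livers. Ahcy, which splits S-adenosylhomocysteine, was at 852, 633, 822, 573 and 391 RPKM in control livers and at 163 (M7), 227 (median) and 345 RPKM (M10) in pre-metastatic livers. Neither gene overlapped, and the log2 fold changes were -1.36 ± 0.18 for Gnmt and -1.37 ± 0.22 for Ahcy (SE; edgeR adjusted p = 0.00012 and 0.00038).

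Bhmt, which remethylates homocysteine with betaine, was the most abundant of the 35 in control liver by RPKM. It was at 5294, 3976, 1472, 3273 and 3662 RPKM in C1, C4, C5, C6 and C7, and at 609 (M10), 969 (median) and 1535 RPKM (M8) in pre-metastatic livers. C5 was far below the other control livers, and M8 was the only pre-metastatic liver above C5. The log2 fold change of Bhmt was -1.72 ± 0.27 (SE; edgeR adjusted p = 0.00036). Reads of Bhmt can be shared with near copies, and 2 of these moved with it: Gm5096 had a log2 fold change of -1.96 and Bhmt-ps1 of -1.86, at mean levels of 71.9 and 1.95 RPKM in control liver, while Bhmt2 was at -0.48. Dmgdh and Sardh take the methyl groups of dimethylglycine and sarcosine, the products of Bhmt and Gnmt, to folate. Dmgdh, 36677 bases from Bhmt on chromosome 13, was at 196, 167, 145, 210 and 188 RPKM in control livers and at 64.0 (M7), 98.1 (median) and 120 RPKM (M2) in pre-metastatic livers. Its groups did not overlap, with a log2 fold change of -0.84 ± 0.12 (SE; edgeR adjusted p = 0.00016). Sardh overlapped, at 144 to 192 RPKM against 81.2 to 149 RPKM, with a log2 fold change of -0.38.

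In transsulfuration and cysteine use, 3 of 4 were lower. Cbs, which joins homocysteine and serine, was not called, at 168 to 259 RPKM in control livers and 86.1 to 238 RPKM in pre-metastatic livers (log2 fold change -0.37, 95% interval -0.78 to 0.05). Cth, which releases cysteine, was at 350, 335, 502, 237 and 239 RPKM in control livers and at 74.3 (M7), 116 (median) and 165 RPKM (M4) in pre-metastatic livers. Cth did not overlap, with a log2 fold change of -1.41 ± 0.21 (SE; edgeR adjusted p = 0.00022). Cdo1, which oxidizes cysteine, was at 1326, 1015, 1496, 1104 and 865 RPKM in control livers and at 333 (M12), 509 (median) and 826 RPKM (M6) in pre-metastatic livers. The groups came within a small gap of each other through M6 and C7, and the log2 fold change was -1.09 ± 0.19 (SE; edgeR adjusted p = 0.00077). Csad, the decarboxylase on the way to taurine, was at 12.5 (C1), 27.1 (C4), 97.2 (C5), 34.7 (C6) and 33.1 RPKM (C7) in control livers and at 4.49 (M6), 10.6 (median) and 28.2 RPKM (M5) in pre-metastatic livers. C5 stood far above the other control livers and the groups overlapped, with a log2 fold change of -1.61 ± 0.48 (SE; edgeR adjusted p = 0.018). Without control liver C5 it was -1.0046 and no longer called.

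**Figure D3:**
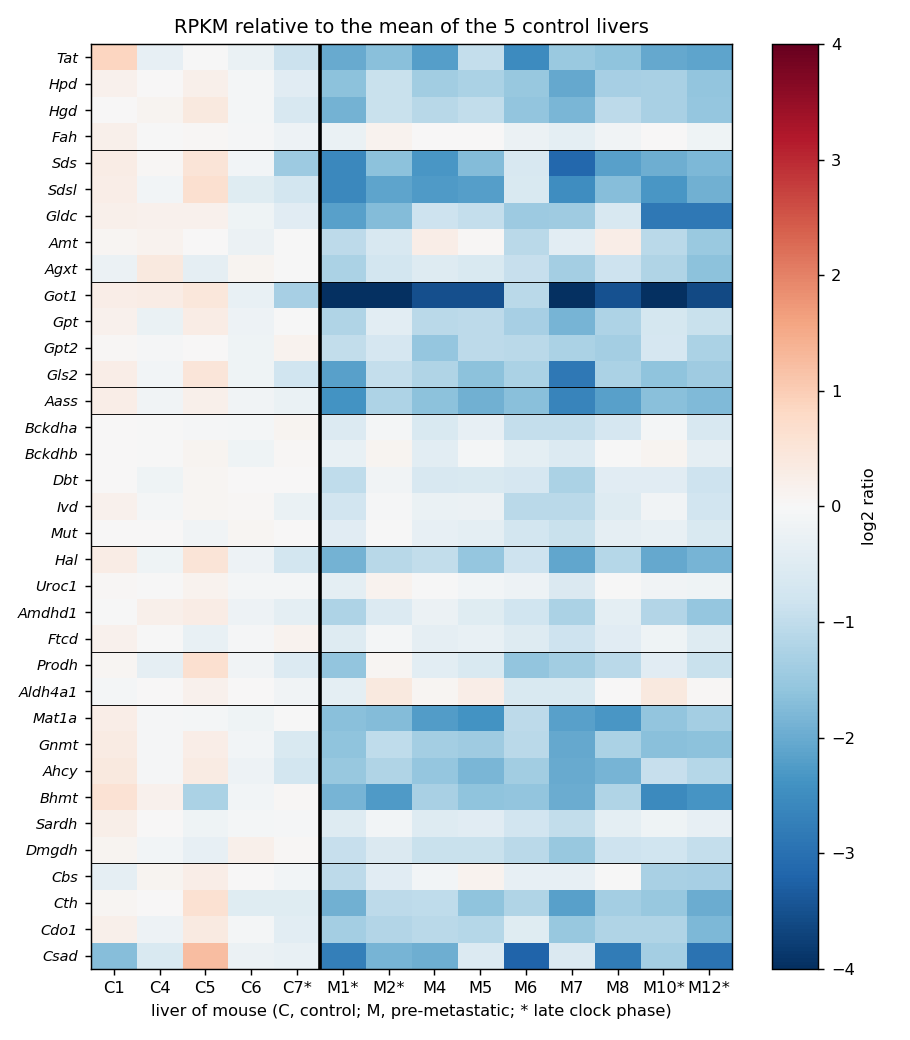
Log2 ratio of RPKM in each of the 14 livers (columns) to the mean of the 5 control livers for the 35 enzymes (rows, in blocks by pathway), with an asterisk for late clock phase. Got1 is the darkest row in every pre-metastatic liver but M6. Fah, Uroc1, Bckdhb and Aldh4a1 stay within 1 of 0, and so do Ftcd, Mut, Bckdha and Sardh, which were called lower.

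The extremes fell on few livers. Among the 9 pre-metastatic livers, M7 was the lowest for 20 of the 35 and M2 the highest for 18. Among the control livers, C7 was the lowest for 19 and C5 the highest for 18. C7 was also the only control liver of late clock phase. Leaving out each liver in turn, 25 to 29 enzymes were called lower. The ranges of log2 fold change in brackets are over all fits that left out 1 liver. The call of Ivd was lost without C1, C5, C6, M1 or M8 (-0.50 to -0.36). That of Ftcd was lost without C1, C4, C6, C7, M1, M5 or M8 (-0.40 to -0.25). That of Prodh was lost without C1, C5, C6, M1, M5, M6, M7 or M8 (-0.85 to -0.51), and that of Sardh without C1, C4, C6, C7, M1, M4, M5, M6, M7 or M8 (-0.42 to -0.28).

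Marker transcripts of other cell types and of the acute phase response also differed between the liver groups. Of 8 leukocyte markers, 7 were higher in pre-metastatic liver, and their summed level was 29.2 to 54.1 RPKM in control livers and 64.1 to 309 RPKM in pre-metastatic livers. All 5 acute phase genes were higher, with sums of 2385 to 7553 RPKM against 9812 to 38389 RPKM. Of the 7 hepatocyte markers, Hnf4a was lower, Fgb and Serpina1c were higher, and Alb, Ttr, Apoa1 and Apob were not called. Of 5 periportal markers 3 were lower (Ass1, Cps1 and Hsd17b13), and of 6 pericentral markers 1 was lower (Oat) and 2 were higher (Cyp1a2 and Rgn). Hnf4a and Oat are also in the list of other amino acid genes below, so the lists are not independent. Of the remaining lists, 1 of 4 endothelial, 1 of 5 stellate and 2 of 4 cholangiocyte markers were higher and 0 were lower. The part of these in the lower levels of the 35 enzymes was not tested.

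Among other genes of amino acid metabolism, more were called lower than higher. Of 72 listed, 69 were tested in the liver comparison, 22 were lower and 8 were higher, with a median log2 fold change of -0.20. Of all genes tested in this comparison, 13.3% were lower and 17.7% higher. Oat, ornithine aminotransferase, was the most lowered, at 624 to 805 RPKM in control livers and 102 to 246 RPKM in pre-metastatic livers (log2 fold change -2.13 ± 0.14 SE). Suox, sulfite oxidase, was at -1.20 on the log2 scale, the mitochondrial ornithine carrier Slc25a15 at -1.17, the cationic amino acid transporter Slc7a2 at -1.04, the branched-chain aminotransferase Bcat2 at -0.83 and the transcription factor Atf5 at -0.80. Among the 8 that rose were the neutral amino acid transporters Slc1a4 (2.32) and Slc38a2 (1.22), the cobalamin enzyme Mmab (1.17), methionine synthase Mtr (0.74) and the glycolate oxidase Hao1 (0.74), all as log2 fold changes. The Slc1a4 groups overlapped, at 0.607 to 1.21 RPKM in control livers and 0.593 (M10) to 14.8 RPKM (M8) in pre-metastatic livers. Of the 8 transporters listed, 1 was lower and 4 were higher in late-phase than in early-phase pre-metastatic livers. Of all genes tested for phase, 0.712% were lower and 1.03% higher.

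For S-adenosylmethionine synthesis the liver form and the general form of the enzyme were set side by side, in a choice made after the values were seen. Mat2a, the methionine adenosyltransferase of most other tissues, was at 20.5 to 26.0 RPKM in control livers and rose in pre-metastatic livers, where it was at 25.1 to 42.2 RPKM (log2 fold change 0.67 ± 0.12 SE, edgeR adjusted p = 0.00069). The ratio of Mat1a to Mat2a in RPKM had a median of 113 in control livers, 22.0 in pre-metastatic livers and 0.00148 in tumors. The ranges of the Mat1a to Mat2a ratio did not overlap between the liver groups, at 95.7 to 147 and 11.3 to 45.4.

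**Figure D4:**
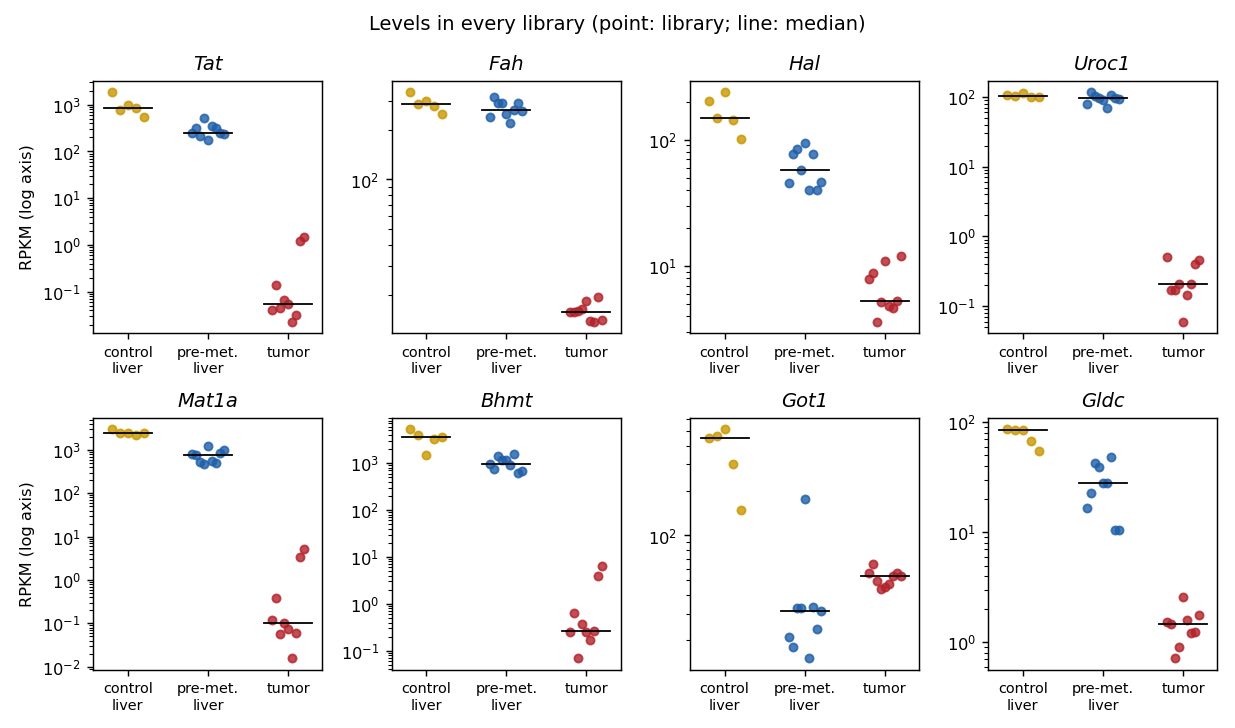
RPKM on log axes of 8 enzymes in each of 5 control livers, 9 pre-metastatic livers and 9 primary tumors (points), with the median of each group (line). Fah and Uroc1 overlap between the livers, the Got1 point of M6 lies at 176 RPKM apart from the other pre-metastatic livers, and tumors M10 and M12 are the 2 highest tumor points for Tat, Mat1a and Bhmt.

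The second comparison set the primary tumor against the pre-metastatic liver of the same mice, and it shares those 9 livers with the first. By edgeR's test without pairing by mouse, all 35 enzymes were called lower in tumor. Of the 17829 genes tested, 40.5% were called lower and 43.8% higher. The median log2 fold change was -7.64 over the enzymes and 0.09 over all genes. With the mouse as a replicate block 34 were lower, and without tumors M10 and M12 also 34, with Got1 lost in both fits. In RPKM, 15 enzymes averaged under 1 and 11 averaged 5 or more in tumor. None (0) was at 3 counts or fewer in every tumor.

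The tumor levels fell into a wide range when each was set against its own level in pre-metastatic liver. The percentages are of mean RPKM, which is scaled by library totals. Under that scaling the median log2 fold change of all genes was 1.27, against 0.09 in edgeR's test. The percentages therefore lie above the matching edgeR fold changes, and the counts at each bound depend on the scaling. The 7 hepatocyte markers stood at 0.0925% to 0.127% of their liver level, and 6 of the 35 enzymes (Agxt, Ftcd, Cbs, Hpd, Tat and Gnmt) were at or below the highest of these. Another 11 were under 1%, and 12 were at 10% or more. Without tumors M10 and M12 the hepatocyte markers were at 0.0183% to 0.0687%, 11 enzymes were at or below the highest of these, and 18 were under 1%. Mat1a, for example, was at 0.0156% of its liver level in those 7 tumors, and 12 enzymes were at 10% or more.

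The 3 highest tumor levels were those of Ahcy, Got1 and Bckdha. Ahcy, which all cells that methylate need, was at 47.7 to 69.5 RPKM in tumors with a median of 56.5, against 163 to 345 RPKM in pre-metastatic livers. Bckdha was at 13.1 to 22.8 RPKM with a median of 18.0, against 75.6 to 138 RPKM. Got1 was at 44.1 to 64.3 RPKM in tumors with a median of 53.3, above all pre-metastatic livers but M6 and below all control livers. By RPKM its mean in tumor was 123% of that in pre-metastatic liver, whereas the edgeR log2 fold change was -0.95 (adjusted p = 0.037), which turned to 0.29 when scaled by library totals. That scaling moved the median of all genes from 0.09 to 1.27, and relative to it Got1 was lower in both. A place below that median was not a test of Got1. The call of Got1 was lost with DESeq2, without the count filter, with mouse as a block and without tumors M10 and M12. Without M6 the pre-metastatic livers had a mean Got1 of 25.9 RPKM and a highest value of 33.2 RPKM, below every tumor. No tumor fit left out liver M6. By percentage of liver level, Csad came after Got1, at 62.7%, and Mut, a mitochondrial enzyme, followed at 30.6%.

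**Figure D5:**
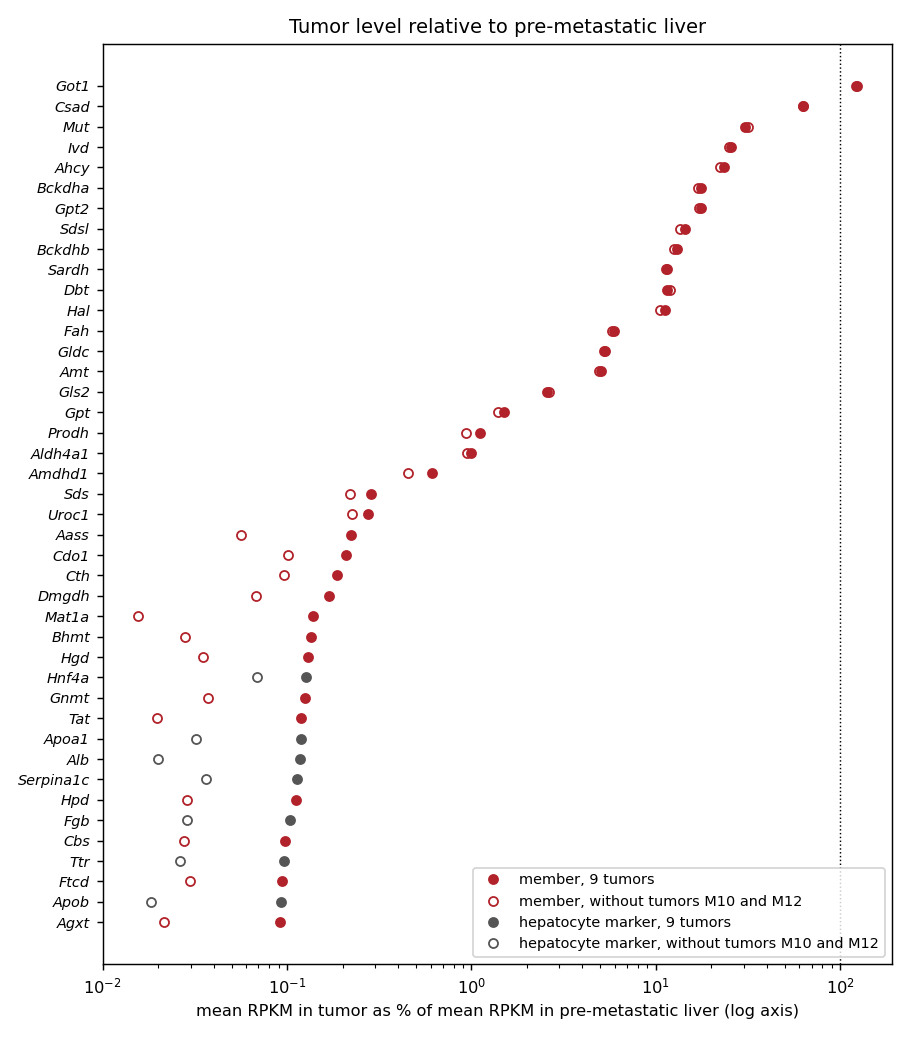
Mean RPKM in tumor as a percentage of mean RPKM in pre-metastatic liver (log axis) for the 35 enzymes (red) and 7 hepatocyte markers (grey), over 9 tumors (filled) and without tumors M10 and M12 (open). Got1 lies at 123%, Csad at 62.7%, and the lowest enzymes lie with the hepatocyte markers and move left with them when the 2 tumors are left out.

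Clock phase was compared among the pre-metastatic livers because the hour of collection is not given in the sources used here and several liver enzymes follow the day. Of the 35 enzymes, 2 were lower in the 4 late-phase than in the 5 early-phase livers and 0 were higher, where 0.712% of the 16702 genes tested were lower and 1.03% higher. Gldc was at 10.4 to 22.7 RPKM in late-phase and at 27.9 to 48.6 RPKM in early-phase livers, with a log2 fold change of -1.31 ± 0.23 (SE; edgeR adjusted p = 0.023). Cbs was at 86.1 to 157 RPKM in late-phase and at 170 to 238 RPKM in early-phase livers, with a log2 fold change of -0.86 ± 0.16 (SE; edgeR adjusted p = 0.025). Neither gene overlapped between phases, which describes the same values that gave the calls. The share of all genes without overlap between phases was not counted. Both calls were lost without M4, M8, M10 or M12, and that of Cbs also without M1 or M5.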

How the data were processed

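Gene-level counts and RPKM values were deposited by the authors in 1 table of 48897 lines for 23 libraries. Per the labels, polyadenylated RNA was made into libraries with a NEBNext Ultra kit. The submitters' processing notes name HISAT2, HISAT, HTSeq 0.6.0 and build mm10, and their settings are not given in the sources used here. RPKM recomputed from the counts and lengths differed from the deposited RPKM by at most 1.75e-06 of the value.

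Counts were tested with edgeR 4.0.16 in R 4.3.3 (TMM, quasi-likelihood, two-sided, Benjamini-Hochberg over all genes tested, threshold 0.05), without covariates. Genes needed 10 counts in at least 5 livers (tumor comparison 9 libraries, phase comparison 4). SE was the log2 fold change divided by the square root of F, and the 95% intervals take this error as normal, which makes them somewhat narrow with few livers. DESeq2 1.42.0 and other settings were alternatives. On simulated livers 179 of 200 changed genes were recovered, with 7 false calls among 16726 genes. The clock index, late above 0, subtracted the mean standardized log2(RPKM + 1) of Clock, Npas2 and Arntl from that of Ciart, Dbp and Per3. Replicates were separate mice.

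The enzymes and the lists were chosen with earlier results of these data known. Full values were given for enzymes called lower whose groups did not overlap or whose log2 fold change was at least 1 in size. In tumor, those with the 3 highest levels were named, and in the phase comparison all called. Of other amino acid genes, at most 12 were named, those called with a log2 fold change of at least 0.58 in size, by size. A gene that met this rule is not reported here. Positions are from GENCODE M21. Liver and tumor of a mouse come from the same animal, so the mouse pairs them. Their deviations from the group means correlated at -0.032 to 0.169 over 17829 genes (mean 0.0582, against -0.0074 for different mice).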

Additional observations from a re-analysis of the deposited data

Results flagged for a closer look

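Of 105 group values tested (35 enzymes in 3 groups), 10 had 1 library whose gap to the nearest other library was large against the whole range of its group by Dixon's criterion, where chance gives about 1 in 20. Pre-metastatic liver M6 was the highest in 4 of them, for Got1 (176 RPKM, others 15.1 to 33.2), Sds (151 RPKM, others 26.7 to 75.5), Sdsl (18.5 RPKM, others 4.71 to 8.71) and Cdo1 (826 RPKM, others 333 to 555). In control livers, C5 was the highest for Csad at 97.2 RPKM and C4 the lowest for Dbt at 31.5 RPKM.

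In tumors, M12 was the highest for Ftcd at 0.534 RPKM and for Cbs at 0.829 RPKM, and its Alb level, 173 RPKM, was also the highest of the tumors. Tumor M6 was the highest for Amt at 2.13 RPKM and tumor M2 for Dbt at 4.75 RPKM.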

How the results depend on the processing

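The count of 29 enzymes lower in pre-metastatic liver was 29 with DESeq2, RLE size factors, library totals or phase as a term, 27 without the count filter or in early-phase livers, 26 by an exact Wilcoxon test of RPKM and 18 with all 23 libraries in 1 fit, where 11 calls were lost. The cause of that last value was not tested. Leaving out 1 liver gave 25 to 29. None (0) was higher in any of the 23 fits, and 14 were lower in all. Signs turned for genes not called: Aldh4a1 was at -0.0374 by the Wilcoxon test and -0.1201 in early-phase livers, and Fah ranged from -0.0948 to 0.0563 when 1 liver was left out.

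In tumor, Got1 turned to 0.2942 with library totals, which moved the median of all genes from 0.09 to 1.27, so that Got1 stayed below that median. Csad, at -0.67, lost its call under the same scaling. The call of Got1 was also lost with DESeq2, without the filter, without tumors M10 and M12 (chosen after seeing the data) and with mouse as a replicate block (paired), which left 34 lower and changed no other call.

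For clock phase, DESeq2 called 4 enzymes lower and 1 higher, and leaving out 1 liver gave 0 to 3 lower. With all 14 livers the sign turned for Hpd (-0.0097), Fah (-0.0191), Gls2 (-0.1691) and Uroc1 (-0.0025), none of them called. When 1 liver was left out, signs turned for Hgd (-0.2317 to 0.0582), Sds (-0.4157 to 0.3927), Gls2 (-0.1172 to 0.2503), Uroc1 (-0.0179 to 0.1354) and Gnmt (-0.2033 to 0.0775).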
